A study of Mus musculus with 17 samples.

Results

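IgM+CD138+ cells were compared with B220+CD23-IgM+ cells sorted from mouse spleen, over both genotypes of the study, on 11 of its 17 arrays. CD138 (syndecan-1) is a surface proteoglycan used to sort antibody-secreting cells, B220 is the B cell form of CD45, and CD23 is the low affinity IgE receptor of follicular B cells, so that B220+CD23-IgM+ cells are IgM-bearing B cells without that follicular marker. Arrays were taken by their labelled cell type, which gave 6 arrays of IgM+CD138+ cells and 5 of B220+CD23-IgM+ cells. The control mice are labelled LDL-R KO, and the others c-myb h/h LDL-R KO, so every mouse lacked the receptor that clears low density lipoprotein from blood. All had eaten a diet high in cholesterol over 12 weeks before the spleens were taken, and no further treatment is named. There were 3 arrays in each group but that of control B220+CD23-IgM+ cells, which had 2. The design text describes separate mice, and arrays of 1 genotype with the same number were read as 1 mouse that gave both populations, a reading that the labels do not spell out. The age of the mice and the nature of the h/h allele, which concerns Myb, a transcription factor of blood cell development, do not stand in the sources used here. The remaining 6 arrays, of B220+CD23+ cells, are not part of the contrast. They serve as a reference level, in the check and placement of gene names, and in an alternative fit.

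A B cell that becomes an antibody-secreting cell turns its immunoglobulin genes from membrane receptor to secreted antibody and makes these transcripts in very large amounts. Heavy and kappa light chain genes lie in long clusters of variable segments, of which each cell joins 1 to a constant region, so a mixed population of such cells expresses many segments at once. The secreted chains fold in the endoplasmic reticulum, where the sensor Ern1 (IRE1) and the transcription factor Xbp1 raise the level of chaperones and of the protein export machinery. In the same step the genes that define a mature B cell, such as those of class II antigen presentation, of the complement receptor and of the B cell receptor's signalling chain, are known to be turned down.

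The values are log2 expression, so a difference of 1 is 2-fold, and each is printed by its row in the deposited list and its probe set ID. The IDs as listed do not name the values. Values lay at other rows than their IDs, by a distance that grew along the list. With names as listed, gene families used in nearly every cell (ribosomal, proteasome and mitochondrial genes among others) were on average 0.20 log2 lower than families that are silent in most tissues, such as olfactory receptors and keratins, on the 17 arrays. Values were therefore also placed along the list of IDs from their mean level over all arrays, without using any difference between populations, and with immunoglobulin genes and members of the gene lists giving no information. The same families then lay 4.67 log2 apart, the bright ones above the silent ones. Their levels also guided the placement, so this difference tests nothing. In a further run every second member of a wider set of such families gave no information, while the others still guided the placement. The withheld members lay 4.18 log2 apart at the placed IDs, against 2.17 at 1 row before and 2.09 at 1 row after. Only placements with a posterior of at least 0.9 were counted. Of 33327 rows with values, 63.1% were placed at the same ID under 9 settings of the method. Every gene name in the results is the gene of such a placed ID unless marked as uncertain, and single placements can still be a row off. Placement errors were not measured gene by gene. The form of the placement was chosen by the model's evidence, after an earlier form had put some list members beside their row. Agreement of list members with their populations is therefore not independent of that choice.

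A large share of the transcriptome differed between the populations, and the rises in IgM+CD138+ cells were larger than the falls. Of 18877 rows tested, 8617 (45.6%) passed the test (limma with genotype as a term, called at an adjusted p under 0.05 by Benjamini-Hochberg). In IgM+CD138+ cells 3665 of them were higher (19.4%) and 4952 lower (26.2%). Differences of at least 2-fold were found in 1103 higher and 873 lower rows. At 4-fold and above the rises were more numerous, with 383 rows (2.03%) higher and 105 (0.556%) lower, and at 16-fold and above all 61 rows were higher. Among the 9141 tested rows placed at 1 gene, 142 (1.55%) were at least 4-fold higher and 62 (0.678%) at least 4-fold lower. The largest rise was 6.07 log2 and the largest fall -3.68, while the median over all rows was -0.05. Of these 61 rows 41 lay in 3 stretches of the list that were placed at the immunoglobulin heavy and kappa chain loci. Jchain, Tnfrsf17 and Sdc1 (the last with an uncertain placement) were among the other 20. In these bulk samples fewer cells of a type and less RNA per cell cannot be told apart.

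The arrays themselves fell into the labelled populations. Of the variance 70.0% lay on the first principal component, which placed IgM+CD138+ arrays at 36.2 to 52.2 and B220+CD23-IgM+ arrays at -57.4 to -52.0. Pearson correlations over all valued rows were 0.975 to 0.989 within groups and 0.938 to 0.956 between populations, and no 2 arrays were copies (lowest SD of the difference 0.306 log2). Array medians lay between 5.13 and 5.20, which gives the level of a middling row on these arrays. The median SD within a group was 0.181 log2 for control and 0.166 for c-myb h/h IgM+CD138+ cells, against 0.111 for the 2 control arrays and 0.138 for the c-myb h/h arrays of B220+CD23-IgM+ cells.

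The largest rises were concentrated at 3 stretches of the list that correspond to the clusters of immunoglobulin segments. Cut into windows of 100 listed rows, 4 of 349 windows held at least 10 rows that were 4-fold or more higher, namely rows 12601 to 12700 with 42 of 72 tested, rows 12701 to 12800 with 46 of 67, rows 30201 to 30300 with 32 of 74, and rows 31101 to 31200 with 54 of 80. No other window held more than 6 such rows, and no window held more than 4 that were 4-fold or more lower. Joining such rows where they were at most 20 listed rows apart gave stretches at rows 12622 to 12759, 30214 to 30257 and 31098 to 31170. Together they held 175 of the 383 rows at least 4-fold higher and 41 of the 61 at least 16-fold higher. Outside them 1.11% of 18662 tested rows were at least 4-fold higher. In the 50 rows on either side of each stretch no tested row was 4-fold higher. The nearest 20 could hold none by the joining rule. The rows tested before and after were 29 and 23, 20 and 29, and 15 and 28, too few to show how sharp the edges were.

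**Figure D1:**
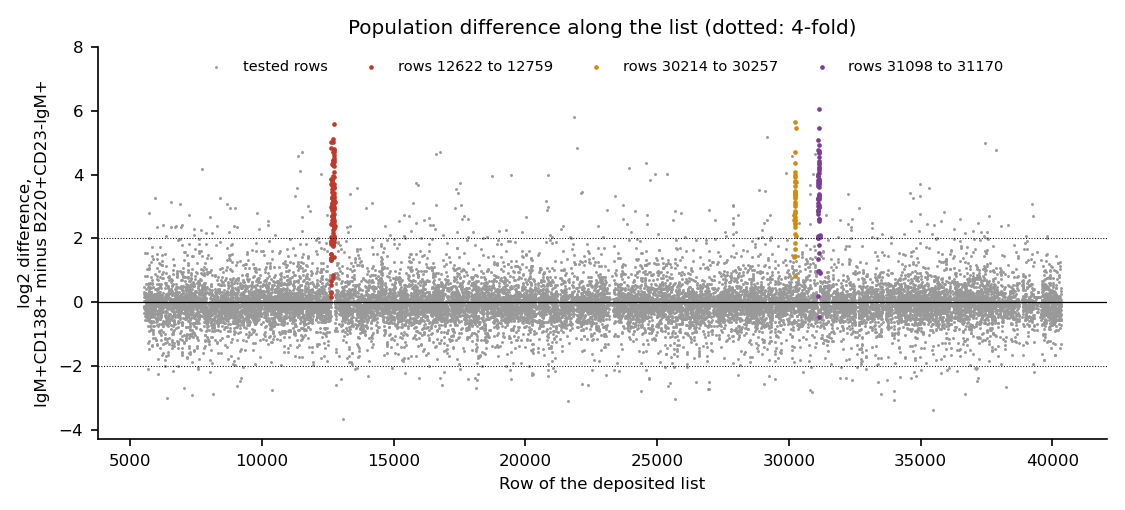
Differences of IgM+CD138+ from B220+CD23-IgM+ cells (log2, vertical axis) for every tested row, in the order of the deposited list (horizontal axis, listed row number). Rows of the 3 stretches are coloured, dotted lines mark 4-fold, and the stretches stand out as columns of rows reaching 5.58, 5.64 and 6.07.

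The first stretch, at rows 12622 to 12759, was placed at listed rows 12721 to 12844, where the annotation has the heavy chain locus (17 heavy chain IDs at rows 12721 to 12841, most others in between carrying no gene symbol). Of its 114 tested rows 111 were higher in IgM+CD138+ cells, 88 of them at least 4-fold, with a median of 2.98 log2. The second, at rows 30214 to 30257, was placed at rows 30481 to 30524, with 3 of its rows at kappa chain IDs, of which 6 lie at rows 30483 to 30528. Of its 38 tested rows 36 were higher, 32 at least 4-fold, with a median of 3.11. The third, at rows 31098 to 31170, was placed at rows 31377 to 31448, where a further 12 kappa chain IDs lie, and 41 of its 72 valued rows kept that placement under every setting, with 4 rows placed at other genes. Of its 63 tested rows 60 were higher and 1 was lower, 55 at least 4-fold higher, with a median of 3.30. In all 3 stretches most rows separated the 6 arrays from the 5 without overlap (98, 33 and 55 rows, against 13.7% of all tested rows). The stretches were found from the same differences, so these counts describe them and test nothing.

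Single segments showed both the size of the rise and its variation from array to array. Row 31159 (probe set 17465476), placed at the kappa variable segment Igkv6-23, had the largest difference of all. It read 8.91, 8.67 and 9.43 on the control and 8.78, 9.20 and 10.64 on the c-myb h/h arrays of IgM+CD138+ cells. On the B220+CD23-IgM+ arrays it read 3.98 and 3.16 for control and 2.28, 2.52 and 4.10 for c-myb h/h mice. No array of one population came near the other, and the difference was 6.07 ± 0.42 (SE) log2, or 67.0-fold (limma, adjusted p = 3.23e-07). Row 12754 (17284426) in the heavy chain stretch read 11.76, 12.26 and 11.18 in control and 10.15, 10.01 and 10.93 in c-myb h/h IgM+CD138+ cells, against 4.78 to 5.88 in B220+CD23-IgM+ cells. Its difference was 5.58 ± 0.26, and the 3 control arrays all lay above the 3 c-myb h/h arrays. Row 30245 (17457379) in the second stretch read 11.35 to 12.63 with a median of 11.66 in IgM+CD138+ cells against 5.79 to 6.62 in B220+CD23-IgM+ cells, a difference of 5.64 ± 0.25.

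Some segments differed widely among IgM+CD138+ arrays. Row 12722 (17284321) read 9.02, 11.74 and 10.33 in control and 5.66, 9.61 and 9.28 in c-myb h/h cells, so 1 array lay close to the B220+CD23-IgM+ range of 3.49 to 5.47. Row 12626 (17283595) read 12.62, 13.16 and 12.42 in control and 8.36, 12.52 and 11.27 in c-myb h/h cells, with array 1 of the c-myb h/h mice again the lowest. Row 30257 (17457517) ranged from 5.47 to 9.67, the lowest value this time being array 2 of the c-myb h/h mice. The median SD within the control IgM+CD138+ group was 0.329, 0.297 and 0.329 log2 in the 3 stretches against 0.180 for all rows outside them, and within the c-myb h/h group 0.315, 0.453 and 0.376 against 0.165. Rows outside the stretches that were at least 4-fold higher had median SDs of 0.197 and 0.172.

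The IgM constant region itself was high in both populations. Row 12632 (17283649), placed at Ighm, read 13.55 to 13.65 in IgM+CD138+ and 13.12 to 13.33 in B220+CD23-IgM+ cells. The difference was 0.33 ± 0.07 log2 (limma, adjusted p = 0.00154), and after quantile normalization it was 0.089 (adjusted p = 0.342).

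**Figure D2:**
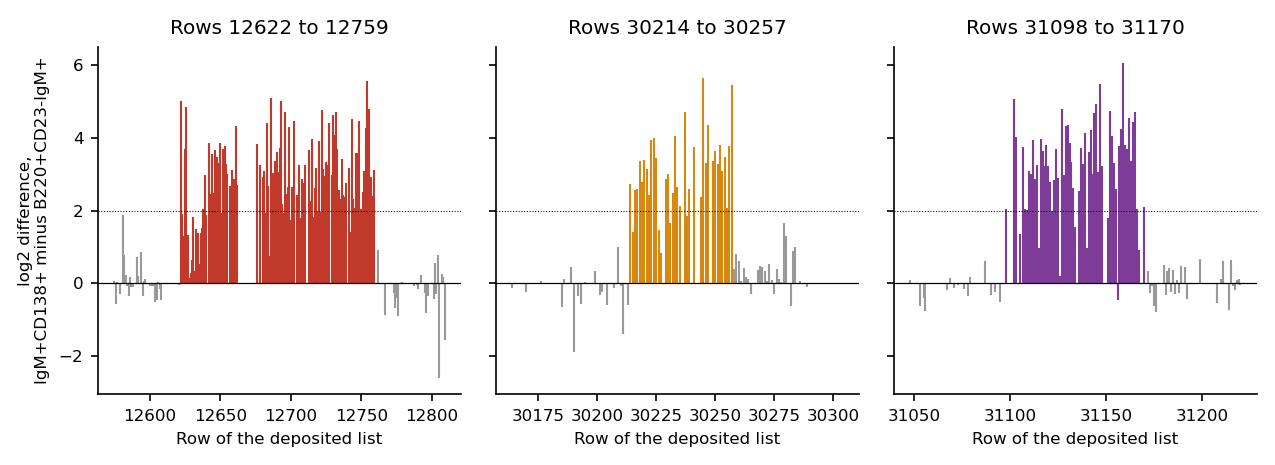
Log2 difference between the populations (vertical axis) against listed row (horizontal axis) for the 3 stretches and 50 listed rows on either side, 1 panel each. Rows inside the stretches have medians of 2.98, 3.11 and 3.30, and the rows beside them hold none at least 4-fold higher.

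Genes that mark or serve antibody-secreting cells were among the strongly raised rows outside the immunoglobulin stretches. The row of Sdc1, which encodes CD138 and thus was selected by the sort, lay in row 11512 (17273056) and read 9.95, 10.05, 10.15, 10.37, 10.27 and 10.16 in IgM+CD138+ cells. In B220+CD23-IgM+ cells it read 5.37, 5.40, 5.59, 5.63 and 5.33, and in B220+CD23+ cells 5.69 ± 0.31 (SD, n = 6). The difference of 4.71 ± 0.08 log2 is a description of the gate. Its placement held in 8 of the 9 settings and is thus marked uncertain.

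Jchain, the joining chain that links IgM units into pentamers, was in row 29168 (17446616). It read 12.59, 12.78 and 12.87 in control and 12.73, 12.85 and 12.84 in c-myb h/h IgM+CD138+ cells, while the B220+CD23-IgM+ arrays read 6.17 and 7.34 for control and 8.21, 8.04 and 8.59 for c-myb h/h mice. The IgM+CD138+ arrays were tightly grouped and the B220+CD23-IgM+ arrays spread over more than 2 log2 units. The difference was 5.18 ± 0.28, or 36.2-fold (limma, adjusted p = 4.03e-08). Tnfrsf17 (BCMA), a receptor for survival factors of plasma cells, in row 16768 (17321630), read 9.10 to 9.50 in IgM+CD138+ and 4.40 to 4.98 in B220+CD23-IgM+ cells, a difference of 4.69 ± 0.11 or 25.8-fold (limma, adjusted p = 1.73e-10). Xbp1, in row 8978 (17246469), rose from 9.01 ± 0.15 (SD, n = 5) to 11.95 ± 0.10 (SD, n = 6), a difference of 2.95 ± 0.08. Irf4, a transcription factor needed for plasma cells, in row 12955 (17285746), rose from 9.02 ± 0.11 to 10.81 ± 0.12, a difference of 1.78 ± 0.08. Of the 10 antibody-secreting cell markers, 4 had a tested row with a certain placement and all 4 were higher without overlap of the arrays. Of all tested rows 13.7% were higher without overlap. With uncertain placements included, 7 of 7 were higher, against 20.2% of the 9141 tested rows placed at 1 gene. Irf4 is also expressed by other activated B cells.

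**Figure D3:**
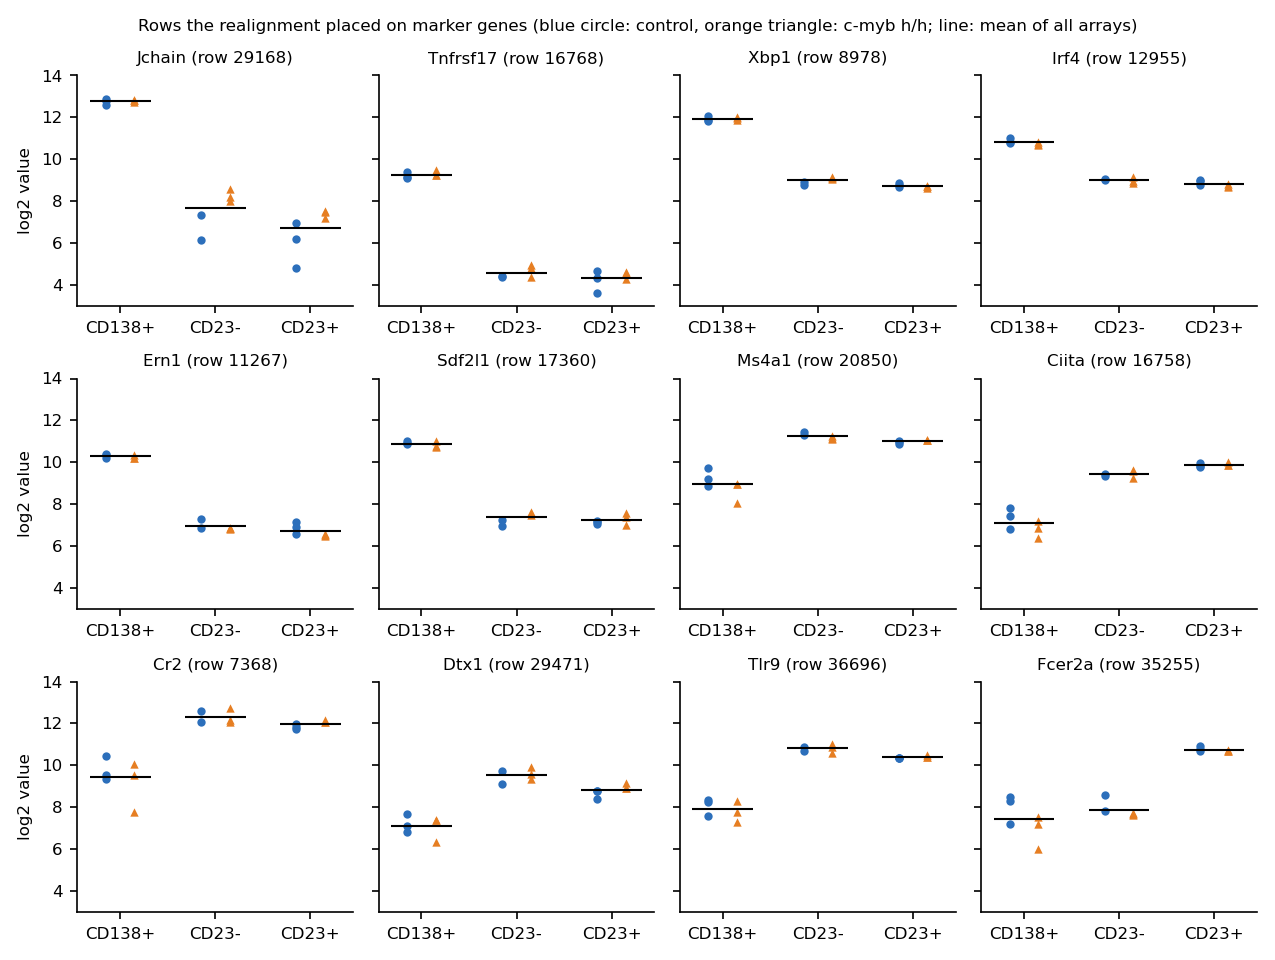
Log2 levels (vertical axis) of single arrays for named genes in IgM+CD138+, B220+CD23-IgM+ and B220+CD23+ cells, with control arrays as circles and c-myb h/h arrays as triangles. Lines are means over all arrays of a population. Jchain, Tnfrsf17 and Xbp1 separate IgM+CD138+ arrays from all others, while Cr2 and Tlr9 lie lower in them with more spread.

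Other strongly raised rows outside the stretches included several genes with no part in antibody structure. Pls1, an actin-bundling protein, in row 37458 (17525964), read 10.20 to 10.85 in IgM+CD138+ and 5.41 to 5.85 in B220+CD23-IgM+ cells, a difference of 4.98 ± 0.11 (limma, adjusted p = 9.00e-11). Chst1, a carbohydrate sulfotransferase, in row 21964 (17372114), read 10.25 to 11.03 and 5.18 to 6.48, a difference of 4.85 ± 0.14. Both genes separated the populations by more than 3 log2 units on every pair of arrays. The membrane protein genes Tmem176b and Tmem176a were 4.65 and 4.58 higher. Slpi, a secreted protease inhibitor, was 4.22 higher, and Tent5c, a poly(A) polymerase that stabilises messages of secreted proteins, was 4.02 higher. Rows placed at Cped1, Lrrn3, Pkd2l2 and Oosp1 were 4.04, 4.01, 3.99 and 3.97 higher. Row 21843 (17370794) had the second largest difference of all, at 5.82 ± 0.31. It read 11.25 to 12.01 in IgM+CD138+ cells against 5.19 to 7.69 in B220+CD23-IgM+ cells, and it has no certain placement (posterior 0.597), so it carries no gene name here.

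Genes of protein folding and export rose together in IgM+CD138+ cells. The list held 43 genes, of which 30 had a certain placement and were tested, and all 30 were higher, from 0.28 to 3.53 log2 with a median of 1.70, against 20.2% of rows placed at 1 gene and a median of -0.06 over those rows. In 27 the rise was at least 2-fold and in 11 at least 4-fold, against 1.55% of rows placed at 1 gene for 4-fold. The arrays of the 2 populations did not overlap for any of the 30, against 13.7% of all tested rows that were higher without overlap. The mean level of the 30 genes was 10.04 to 10.18 on IgM+CD138+ arrays, 8.28 to 8.41 on B220+CD23-IgM+ arrays and 8.09 to 8.30 on B220+CD23+ arrays. With the 9 further tested genes of uncertain placement, 36 of 39 were higher and 1 was lower. By names as listed, 26 rows carried these symbols, and 4 were higher and 7 lower.

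Among the sensors and folding enzymes, Ern1 in row 11267 (17269985) read 10.20 to 10.40 in IgM+CD138+ and 6.83 to 7.31 in B220+CD23-IgM+ cells, a difference of 3.32 ± 0.09 (limma, adjusted p = 3.51e-10). Sdf2l1, which helps the chaperone BiP, in row 17360 (17327130), had the largest rise of the list, from 7.38 ± 0.28 (SD, n = 5) to 10.90 ± 0.12 (SD, n = 6), or 3.53 ± 0.12. BiP itself (Hspa5), in row 21565 (17367683), read 10.84 to 11.25 against 9.50 to 9.86, a difference of 1.36 ± 0.11. Each probe set has its own scale, so the levels of Hspa5 and Sdf2l1 were not compared with each other. Hsp90b1, the endoplasmic reticulum member of the HSP90 family, rose by 1.71 ± 0.07, and the co-chaperones Dnajb11 and Dnajc3 rose by 2.10 and 2.09. Calr and Canx, lectin chaperones of glycoproteins, rose by 1.58 and 0.62.

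Further rises ran along the export path. The translocation channel subunits Sec61a1 and Sec61b rose by 1.61 and 1.31, and the translocon-associated subunits Ssr2, Ssr3 and Ssr4 by 1.55, 1.63 and 2.39. Signal peptidase subunits Spcs1, Spcs2 and Spcs3 rose by 1.83, 2.05 and 2.43, and oligosaccharyltransferase subunits Rpn1 and Rpn2 by 2.47 and 1.53. Sel1l and Edem2, which serve the disposal of misfolded proteins, rose by 2.74 and 2.44. The signal recognition particle genes Srp9, Srp19 and Srp14 rose less, by 1.13, 1.10 and 0.49. The retrieval receptors Kdelr2 and Kdelr3 rose by 1.74 and 2.47. Ddit3, a stress-induced transcription factor, rose by 1.01. The smallest difference was that of Atf4, a transcription factor of the integrated stress response, at 0.28 (limma, adjusted p = 0.0285), which was -0.023 after quantile normalization. Its call also ended without control IgM+CD138+ array 1, without control B220+CD23-IgM+ array 1 or without array 1 of c-myb h/h B220+CD23-IgM+ cells, with adjusted p of 0.0505, 0.102 and 0.0691.

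Promoter sequences of this list were searched for the endoplasmic reticulum stress element, a motif known from chaperone promoters. The letters CCAAT, then 9 bases of any kind, then CCACG were looked for on both strands of the 250 bases before each gene's start in RefSeq (GRCm38.p6). Of 27025 genes with a sequence 35 (0.130%) held a match, and of 34 list genes with a sequence 7 did (20.6%). Among the 23 list genes that also had a certain placement, 5 held it, namely Hspa5, Hsp90b1, Dnajc3, Calr and Canx. The list was chosen for its role in this response, so these shares describe the list and test nothing. Shown are 3 of these promoters, at chr2:34771840-34772089 (plus strand) for Hspa5, chr10:86705445-86705694 (minus strand) for Hsp90b1 and chr14:118937682-118937931 (plus strand) for Dnajc3, because they carry the motif in genes with clear rises. Each is written 5′ to 3′ on the gene's strand with matches in capitals, which in Hsp90b1 are 1 on each strand.
Hspa5: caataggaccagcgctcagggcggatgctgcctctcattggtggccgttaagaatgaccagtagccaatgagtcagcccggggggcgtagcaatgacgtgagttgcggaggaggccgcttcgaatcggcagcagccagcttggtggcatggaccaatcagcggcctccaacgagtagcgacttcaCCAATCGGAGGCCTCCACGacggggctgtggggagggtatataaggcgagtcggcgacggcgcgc
Hsp90b1: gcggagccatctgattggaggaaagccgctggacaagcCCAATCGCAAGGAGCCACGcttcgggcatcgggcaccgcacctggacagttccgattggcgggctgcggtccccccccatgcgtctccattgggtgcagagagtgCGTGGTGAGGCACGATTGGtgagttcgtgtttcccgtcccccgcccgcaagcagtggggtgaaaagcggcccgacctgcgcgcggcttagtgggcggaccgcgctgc
Dnajc3: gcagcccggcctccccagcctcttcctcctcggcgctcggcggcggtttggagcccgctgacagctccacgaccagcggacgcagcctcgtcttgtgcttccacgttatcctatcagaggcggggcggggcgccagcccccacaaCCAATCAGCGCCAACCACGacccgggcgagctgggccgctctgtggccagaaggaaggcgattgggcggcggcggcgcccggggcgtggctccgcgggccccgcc
The first match began 65 bases before the start in Hspa5, 212 in Hsp90b1 and 105 in Dnajc3. A match is a description of letters, and none of the arrays measured binding.

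**Figure D4:**
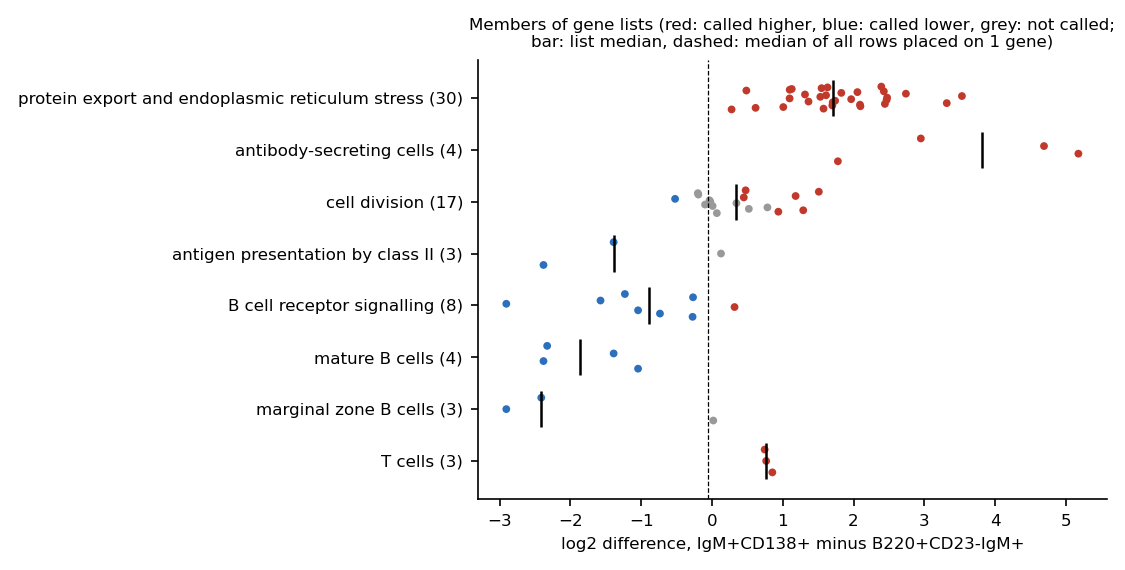
Log2 differences between the populations (horizontal axis) for each gene with a certain placement, by gene list (vertical axis), with genes called higher in red, called lower in blue and others in grey. Bars are list medians, and the dashed line is the median of all rows placed at 1 gene. The 30 export genes all lie above 0, with a median of 1.70, and the mature B cell genes all lie below 0.

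Genes of cell division did not move as one. Of 27 listed, 17 were placed and tested, 6 were higher, 1 was lower and 10 did not pass the test, with a median of 0.34. Of all rows placed at 1 gene 20.2% were higher and 28% lower. The proliferation marker Mki67 read 10.27, 10.15 and 9.89 in control and 10.28, 9.66 and 9.30 in c-myb h/h IgM+CD138+ cells, against 7.86 to 9.42 in B220+CD23-IgM+ cells. Its arrays overlapped, and the difference was 1.18 ± 0.27 (limma, adjusted p = 0.00324). Rrm2, which makes deoxynucleotides, was 1.51 ± 0.23 higher, and Bub1b and Birc5, of the mitotic checkpoint and of chromosome segregation, were 1.29 and 0.94 higher. Mcm3, of the replicative helicase, was lower by -0.52. Mcm6, of the same helicase, differed in the other direction, by 0.37 to 0.53 with single arrays left out. Cdk1, the kinase of mitotic entry, differed by 0.78 (limma, adjusted p = 0.058), and Pcna, the replication clamp, by -0.19 (adjusted p = 0.12). Mean levels of the 17 genes were 6.83 to 7.63 on IgM+CD138+ arrays and 6.55 to 7.36 on B220+CD23-IgM+ arrays, so the ranges overlapped.

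The largest falls in IgM+CD138+ cells included genes of innate sensing, of B cell identity and of the complement receptor. None of the 15 largest lay in the immunoglobulin stretches, and 11 of them had a certain placement. Tlr3, the endosomal receptor for double-stranded RNA, in row 35469 (17506040), read 5.54, 5.76 and 5.74 in control and 5.68, 6.35 and 5.61 in c-myb h/h IgM+CD138+ cells. In B220+CD23-IgM+ cells it read 9.44 and 8.21 for control and 9.21, 9.23 and 9.92 for c-myb h/h mice, and in B220+CD23+ cells 7.23 ± 0.55 (SD, n = 6). Its level lay closer to the array medians of 5.13 to 5.20 in IgM+CD138+ cells than in the other populations, and the difference was -3.38 ± 0.23, or 10.4-fold lower (limma, adjusted p = 3.08e-07). Tlr9, the receptor for unmethylated DNA, in row 36696 (17517448), read 7.32 to 8.38 against 10.57 to 11.04, a difference of -2.89 ± 0.19.

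Cr2, which encodes complement receptors CD21 and CD35 and is highest on marginal zone B cells, was in row 7368 (17231100). It read 9.54, 9.33 and 10.44 in control and 7.80, 10.05 and 9.54 in c-myb h/h IgM+CD138+ cells, against 12.05 to 12.73 in B220+CD23-IgM+ cells. The populations did not overlap, but IgM+CD138+ arrays spread over more than 2 log2 units with c-myb h/h array 1 lowest, and the difference was -2.91 ± 0.37 (limma, adjusted p = 4.82e-05). Spib, an ETS transcription factor that acts against plasma cell formation, fell from 10.02 ± 0.51 (SD, n = 5) to 7.20 ± 0.84 (SD, n = 6), with c-myb h/h array 1 again lowest at 5.89. Fcrl5, an Fc receptor-like protein of marginal zone B cells, differed by -2.81 ± 0.18. Cdh17, a cadherin, in row 25684 (17409477), and the phosphatase Ptpn14, in row 6393 (17220548), were lower by -3.04 and -3.01. Tespa1, of antigen receptor signalling, and the interleukin 9 receptor gene Il9r were lower by -2.89 and -2.76. Rows placed at Tsga13, Gm20559 and Rgs18 were lower by -2.83, -2.76 and -2.69. Among these genes B220+CD23+ cells were close to B220+CD23-IgM+ cells in Spib (9.93 ± 0.11) and Tespa1 (9.58 ± 0.19), and lower than them in Cdh17 (6.67 ± 0.32) and Fcrl5 (8.10 ± 0.52), differences between those 2 populations that were not tested here.

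Genes of mature B cells were lower wherever a placement was certain. Of 11 markers, 4 were placed and tested, namely Ms4a1, Ciita, H2-Aa and Cd79b. All 4 were lower, against 28% of rows placed at 1 gene. They were lower without overlap of the arrays, against 17.4% of all tested rows. With uncertain placements 8 of 8 were lower. Ms4a1 (CD20), in row 20850 (17360912), read 8.90, 9.19 and 9.72 in control and 8.07, 8.97 and 8.95 in c-myb h/h IgM+CD138+ cells, against 11.14 to 11.43 in B220+CD23-IgM+ cells, a difference of -2.33 ± 0.19. Ciita, the activator of class II genes, fell from 9.46 ± 0.17 (SD, n = 5) to 7.11 ± 0.50 (SD, n = 6), and H2-Aa, a class II chain, from 12.35 ± 0.03 to 10.97 ± 0.21. Cd79b, the signalling chain of the B cell receptor, differed by -1.04 ± 0.07. None of the 4 fell to the array median. Their mean level was 9.02 to 9.99 on IgM+CD138+ arrays, with c-myb h/h array 1 lowest and control array 3 highest, and 11.23 to 11.33 on B220+CD23-IgM+ arrays. Without c-myb h/h array 1 the calls of Cr2, Spib and these 4 genes all held.

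Few genes of class II presentation and of receptor signalling could be placed, and some of them (Ciita, H2-Aa, Cd79b) are counted above among mature B cell markers. Of all rows placed at 1 gene 28% were lower. Of 11 class II genes 3 were tested, Ciita and H2-Aa lower and Ctss, a protease of the class II path, at 0.13 (limma, adjusted p = 0.151, and -0.14 after quantile normalization), while 9 of 10 were lower with uncertain placements. Of 17 genes of receptor signalling 8 were tested and 7 were lower. Besides Cr2 and Cd79b these were the adaptor Pik3ap1 at -1.58, the phosphatase Ptpn6 at -1.23 and the kinase Btk at -0.74, with the adaptor Blnk and the phospholipase Plcg2 both at -0.27. The calls of Blnk and Plcg2 ended without control B220+CD23-IgM+ array 1 (adjusted p = 0.0526 and 0.0563), and that of Plcg2 also without c-myb h/h IgM+CD138+ array 2 or 3 or array 2 of c-myb h/h B220+CD23-IgM+ cells (0.0511, 0.0521 and 0.0618). Cd81, a tetraspanin, was 0.32 higher, and -0.034 after quantile normalization.

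Genes of the sort gates and of other cell types were read next. Ptprc (CD45, of which B220 is a form) was lower by -1.02 ± 0.07 in IgM+CD138+ cells. Fcer2a, which encodes CD23, in row 35255, read 7.21, 8.31 and 8.49 in control and 6.0, 7.53 and 7.21 in c-myb h/h IgM+CD138+ cells. It read 7.64 to 8.59 in B220+CD23-IgM+ cells and 10.74 ± 0.09 (SD, n = 6) in B220+CD23+ cells, so both populations lay far below the cells sorted for CD23, and their own difference of -0.52 ± 0.30 did not pass the test (limma, adjusted p = 0.182). Of 5 marginal zone markers 3 were tested. Cr2 and Dtx1, a target of Notch signalling, were lower by -2.91 and -2.41 in IgM+CD138+ cells, while the tetraspanin Cd9 differed by 0.018 (adjusted p = 0.925). Bhlhe41, the 1 B1 cell marker tested, differed by 0.57 (adjusted p = 0.0591).

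The T cell markers tested moved with the contrast. Of 5 listed, Cd3e, Cd3g and Cd4 were tested, and they were higher in IgM+CD138+ cells by 0.85, 0.77 and 0.74 (limma, adjusted p = 0.00226, 0.0151 and 0.000445), against 20.2% of rows placed at 1 gene that were higher. Their mean level was 6.76 to 7.61 on IgM+CD138+ arrays and 5.99 to 6.91 on B220+CD23-IgM+ arrays, so the ranges overlapped. The call of Cd3g ended without control B220+CD23-IgM+ array 2 (adjusted p = 0.0525). The part of T cell RNA in the results was not tested. Of the macrophage and monocyte markers Lyz2 was lower by -0.83 and Csf1r differed by 0.40 (adjusted p = 0.132). Tcf4, of plasmacytoid dendritic cells but also of B-lineage cells, was higher by 0.24, a call that ended without c-myb h/h IgM+CD138+ array 1, control B220+CD23-IgM+ array 1 or array 3 of c-myb h/h B220+CD23-IgM+ cells (adjusted p = 0.0511, 0.0572 and 0.0544). Ncr1, of NK cells, differed by -0.17 (adjusted p = 0.509). No neutrophil or erythroid marker had a certain placement.

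The same contrast was read within each genotype. The test called 5763 rows (30.5%) for control mice against 6381 (33.8%) for c-myb h/h mice, and 4569 were called in both with the same direction, which is 79.3% of the control calls and 71.6% of the c-myb h/h calls, while 4 were called in opposite directions. The control count rests on 2 arrays of B220+CD23-IgM+ cells, and it was 3554 without the first and 3666 without the second. The medians of the 3 stretches were 2.87, 3.24 and 3.47 for control against 3.08, 3.05 and 3.39 for c-myb h/h mice. Of all 18877 tested rows, 2664 were called higher and 3099 lower for control mice, and 2764 higher and 3617 lower for c-myb h/h mice. Of the 30 export genes 29 were called higher in each genotype, with medians of 1.74 and 1.67. Mature B cell genes had medians of -1.67 and -1.99, and all 4 were lower in each genotype. Cell division genes had medians of 0.55 and 0.15, with 5 higher in control mice. In c-myb h/h mice 3 were called higher and 1 was called lower.

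No row differed between the genotypes in its population difference. The interaction test called 0 of 18877 rows (0%; limma, lowest adjusted p = 0.892), and 989 rows (5.24%) had an unadjusted p under 0.05. Leaving out control IgM+CD138+ array 2 gave 1 call. The rows of lowest p were row 17313 (17326801), placed at Dexi, with a population difference in c-myb h/h mice that was -0.97 ± 0.18 against control, row 27577 (17428752) at -0.91 ± 0.17, and row 29002 (17444792) at 1.09 ± 0.21. Row 17313 read 6.78, 7.06 and 6.81 in control and 6.37, 6.60 and 6.38 in c-myb h/h IgM+CD138+ cells. In B220+CD23-IgM+ cells the order was opposite, at 6.32 and 6.29 for control and 7.0, 6.79 and 6.74 for c-myb h/h mice. Jchain, with a difference of 5.99 for control against 4.53 for c-myb h/h mice, did not pass this test either. The test's miss does not show that the genotypes are alike.

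**Figure D5:**
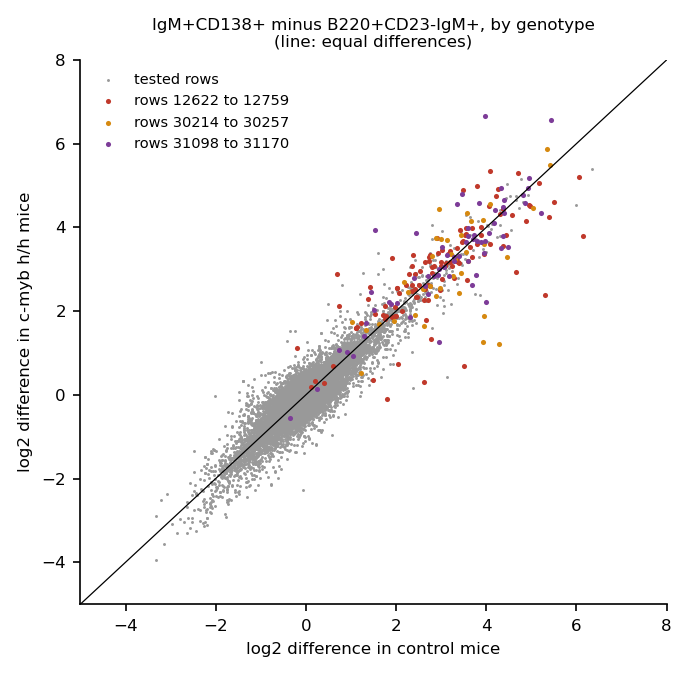
Log2 population difference in c-myb h/h mice (vertical axis) against that in control mice (horizontal axis) for tested rows, with the rows of the 3 stretches coloured and a line at equal differences. Points lie along the line, and 4569 rows were called in both genotypes with the same direction.

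The gene named in the genotype did not separate the groups. Row 8275 (17239268), placed at Myb, read 7.33, 7.73 and 7.20 in control and 7.36, 7.18 and 7.85 in c-myb h/h IgM+CD138+ cells. In B220+CD23-IgM+ cells it read 6.94 and 8.30 for control and 7.75, 7.42 and 6.66 for c-myb h/h mice. A second row placed at Myb, row 7447 (17231784), read 5.21 to 6.07 and 5.56 to 5.78 in the 2 populations. The genotypes overlapped in both rows and both populations, and the population differences were 0.016 (limma, adjusted p = 0.971) and -0.10 (adjusted p = 0.542). Which bases the h/h allele changes and where these probes lie does not stand in the sources used here, so the genotype labels were not checked by these rows.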

How the data were processed

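Per the labels' protocols, biotin-labelled RNA of sorted spleen cells was used, with an array for each sample. The authors' deposited values are log2, from RMA according to the submitters' processing notes. The sources used here do not say if the arrays were normalized as 1 set. Of 41801 listed rows 8474 were blank and 33327 held values.

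The 11 arrays were fitted with limma 3.58.1 in R 4.3.3 (lmFit, eBayes, 2-sided, genotype and population as terms, no mouse block). A row was tested if above its array's 50th percentile in at least 2 arrays. Group means gave the values within genotypes and the interaction.

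Values were placed along the listed IDs with a hidden Markov model of skipped IDs, in Python 3.11.15, from mean levels over the 17 arrays, with immunoglobulin genes and list members giving no information. A placement counts as certain with a posterior of at least 0.9, the same ID in 9 settings, and no other row there. Of the rows placed so, 99.3% carry another ID in the list, with a median shift of 183 rows and a highest of 442. The plan had been to give list members only as counts with names as listed. The placement was added after the data were seen, and its form was chosen by the model's evidence after an earlier form had put some list members beside their row, so agreement of markers with their populations is not independent of that choice.

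Named rows were the 15 largest differences in each direction without overlap of the arrays, the 3 largest of each dense window, the 3 lowest p of the interaction, list members, and, added later, the 12 largest in each direction placed at 1 gene outside the stretches. The members and lists were chosen with earlier results of these data known. The limma step and the placement were tested on simulated data. Figures used matplotlib 3.10.9. Precision is limited by the number of arrays, and where samples of 1 group are not separate mice the p-values measure only the spread between them. Alternatives covered the filter, normalization, variance model, arrays, mouse block, fold threshold and each array left out.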

Additional observations from a re-analysis of the deposited data

Results flagged for a closer look

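In 5 of 72 sets of arrays checked, 1 array lay apart from the others of its population, with genotypes pooled, by a gap large against the whole range. The limit was Dixon's critical value at 95%, which by its definition chance passes in about 5% of sets.

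On c-myb h/h IgM+CD138+ array 2, row 30257 (17457517) in the second immunoglobulin stretch read 5.47, and the nearest array read 8.14. The same array read 6.35 in row 35469 (17506040), placed at Tlr3, where the nearest read 5.76. Control B220+CD23-IgM+ array 2 stood apart in 3 rows. It read 8.30 in row 6393 (17220548), placed at Ptpn14, where the nearest read 9.16. In row 8148 (17238594), placed at Tespa1, it read 9.44 against 9.91. In row 30237 (17457310), in the second stretch, it read 6.56 against 6.16. In each of these rows the populations stayed apart without overlap.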

How the results depend on the processing

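Of 111 named rows called in the population contrast, 103 kept their call under every alternative other than the fold threshold, and 8 lost it under at least 1 (Atf4, Plcg2, Tcf4, Cd81, Ighm, Blnk, Cd3g and S1pr2). A test against 1.5-fold (limma treat) ended 25 of the calls and left 1960 rows in all, 1122 higher and 838 lower, with 1313 for control and 1540 for c-myb h/h mice. Quantile normalization turned Atf4 to -0.023, Cd81 to -0.034 and Ctss to -0.14. Array weights turned Cd9 to -0.027, and leaving out single arrays moved it from -0.12 to 0.13. Keeping only rows listed with 1 gene symbol left 69 rows at least 4-fold lower, 39 at least 16-fold higher, and 49 and 18 rows at least 4-fold higher in the first and second stretch. Without the 3 stretches 208 rows were at least 4-fold and 20 at least 16-fold higher. Leaving out 1 array at a time gave 3554 to 5937 calls in control mice and 0 to 1 for the interaction. The difference between bright and silent families rose to 1.92 with an evenly growing displacement, 2.03 with a constant one in each of 10 parts of the list and 4.67 at the placed IDs. The displacements were those that put these families furthest apart, and the placement used them too, so the rises test nothing.

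The reading of the same number as 1 mouse was tried as a replicate block. Deviations of same-numbered arrays correlated at 0.121 and 0.109 for control and 0.142, 0.0795 and 0.119 for c-myb h/h mice, so 4 of 5 pairs were over 0.1, and each of these arrays correlated best with its own number, a hint from the data and not from the design. The mouse as a fixed block called 8302 rows, over the 10 arrays of the 5 mice with both populations, and as a random block 8636 (within-mouse correlation 0.00465). With the fixed block Atf4 lost its call (0.27, limma adjusted p = 0.0772) while Fcer2a (-0.65), Cdk1 (0.83), Bhlhe41 (0.62) and Csf1r (0.51) passed the test (adjusted p = 0.0354, 0.0158, 0.0303 and 0.0334).

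Signal over background was not among the values used here, so low rows have no stated limit of detection. Placement limits what can be named, since 36.9% of valued rows have no certain ID.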

Other observations

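Families of receptors that B-lineage cells use to sense microbes, lipids and chemokines were read after the falls of Tlr3 and Tlr9 had been seen, so their choice is not independent of the values. Of 36 genes 24 had a certain placement and 22 were tested, and of all rows placed at 1 gene 20.2% were higher and 28% lower. Of 11 Toll-like receptors 6 were lower in IgM+CD138+ cells, among them the Tlr3 and Tlr9 that prompted the choice, 1 was higher and 4 did not pass the test. Besides Tlr3 and Tlr9, Tlr1, which pairs with Tlr2 for lipopeptides, read 7.29 to 8.52 in IgM+CD138+ and 10.35 to 10.82 in B220+CD23-IgM+ cells, a difference of -2.58 ± 0.15 (limma, adjusted p = 6.69e-08). Tlr7, the receptor for single-stranded RNA, differed by -0.73 ± 0.13, and Tlr2 was the one that was higher, by 0.55 ± 0.15 (adjusted p = 0.00901). Both Fc receptor-like genes tested were lower, Fcrl1 by -1.91 ± 0.20 and Fcrl5 by -2.81 ± 0.18.

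S1pr1, the receptor for sphingosine 1-phosphate that guides exit from lymphoid tissue, read 8.44 ± 0.57 (SD, n = 6) in IgM+CD138+ and 10.93 ± 0.19 (SD, n = 5) in B220+CD23-IgM+ cells without overlap of the arrays, a difference of -2.54 ± 0.21 (limma, adjusted p = 1.30e-06). Of the 4 receptors of this family tested, S1pr4 was also lower (-0.56), S1pr5 differed by -0.49 (adjusted p = 0.0846) and S1pr2 was higher (0.56, adjusted p = 0.0357). The S1pr2 call ended without control IgM+CD138+ array 1 or 3, c-myb h/h IgM+CD138+ array 1, control B220+CD23-IgM+ array 1, or array 2 or 3 of c-myb h/h B220+CD23-IgM+ cells (adjusted p from 0.0582 to 0.12).

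Of 5 chemokine receptors tested with a certain placement 2 were higher and none was lower. With an uncertain placement Ccr6, Cxcr5 and Ccr7 were lower (-2.41, -2.49 and -0.50) and Ccr3 was higher (1.04). Cxcr4, which holds plasma cells at bone marrow niches, read 10.55 to 10.72 against 9.15 to 10.25, a difference of 0.87 ± 0.18 (adjusted p = 0.00156). Ccr10, a receptor of mucosal plasma cells, read 5.46 to 6.75 against 4.57 to 5.07, a difference of 1.21 ± 0.18 (adjusted p = 0.000173).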
